A study of Rattus norvegicus with 6 samples.

Results

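Keratins and beta-defensins were examined as 2 gene families in chromatin immunoprecipitation and sequencing (ChIP-seq) data from PC12 cells, a rat pheochromocytoma line. Members were all genes in the authors' annotated table whose symbol is Krt followed by a digit or begins with Defb. That table is named as holding peaks of α1ACT only, and every peak in it is a peak of the α1ACT library precipitated with the antibody called 1804. There were 42 such genes, 21 keratins and 21 beta-defensins, of 14390 genes in the table. They held 130 peaks, 49 on keratins and 81 on beta-defensins, of 159452.

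The cells stably carried either human α1ACT, a transcription factor translated from the CACNA1A transcript and labelled Q11 here, or the empty pCDNA3 vector. Each of these backgrounds gave 1 library precipitated with the M2 anti-FLAG antibody, 1 precipitated with an antibody called 1804, and 1 input, 6 libraries in all. The labels do not say what 1804 recognises or whether each line is a single clone. The series design text speaks of tissues at day 3, whereas the sample labels name PC12 cells. With 1 library per group there was no replicate error and no test between conditions. Read depth is unknown, because the files used here hold peaks and not reads.

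Keratins are the intermediate filament proteins of epithelia. Type I (acidic) and type II (basic) keratins pair to form filaments, and their genes lie in separate tandem clusters, in which genes of simple epithelia, stratified epidermis and hair follicles stand side by side. Beta-defensins are small cationic peptides that kill microbes and bind chemokine receptors; many rodent members are produced in the epididymis, where they coat sperm. Neither family is characteristic of the adrenal chromaffin lineage from which PC12 cells derive.

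A peak was called promoter when the authors placed it at most 1000 bp from the transcription start site (TSS) of its assigned gene, and distal otherwise. By this rule 8 of 21 keratins (38.1%, 95% interval 18.1 to 61.6) and 2 of 21 beta-defensins (9.52%, 1.17 to 30.4) had a promoter peak, against 43.2% of all annotated genes. The keratin share was near the background, and the beta-defensin interval lay below it. All intervals on shares are exact Clopper-Pearson intervals, which cover counting error only, and neighbouring peaks and genes of 1 cluster are not independent. The keratins with a promoter peak were Krt33a, Krt34, Krt71, Krt23, Krt24, Krt25, Krt8 and Krt83, and the beta-defensins were Defb39 and Defb25.

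The starts of these genes are shown because a peak lies near each. Of the 10 promoter peaks, 6 lay within 50 bp of the annotated TSS (60%, 26.2 to 87.8), against 14.2% of the promoter peaks of other genes. The limit of 50 bp was not among those set beforehand, and the peaks of Krt25 and Defb25 lay at 50 and 49 bp. RefSeq sequence (build GRCr8, a later build than the rn5 of the peak files) was found by gene ID for 8 of the 10 genes. Below are the 150 bases before the RefSeq start of all 8, on the minus strand, 5′ to 3′. Capitals mark the string TATANA, which resembles the core promoter element bound by TBP, and in Krt23, Krt83 and Defb25, which do not contain it, the string ATAAA. The windows are chr10:85474502-85474651 for Krt34, chr10:84771198-84771347 for Krt25, chr7:134761034-134761183 for Krt71, chr10:84733487-84733636 for Krt24, chr7:135010340-135010489 for Krt8, chr10:84946930-84947079 for Krt23, chr7:134433741-134433890 for Krt83 and chr3:161560026-161560175 for Defb25.
Krt34: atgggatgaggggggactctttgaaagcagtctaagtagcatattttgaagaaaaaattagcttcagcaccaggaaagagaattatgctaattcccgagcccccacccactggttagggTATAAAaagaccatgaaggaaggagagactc
Krt25: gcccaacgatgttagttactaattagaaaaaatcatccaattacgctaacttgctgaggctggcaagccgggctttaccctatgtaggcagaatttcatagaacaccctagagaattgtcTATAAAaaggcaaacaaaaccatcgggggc
Krt71: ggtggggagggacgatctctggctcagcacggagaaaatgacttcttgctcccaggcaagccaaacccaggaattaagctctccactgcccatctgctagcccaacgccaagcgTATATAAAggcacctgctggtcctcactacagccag
Krt24: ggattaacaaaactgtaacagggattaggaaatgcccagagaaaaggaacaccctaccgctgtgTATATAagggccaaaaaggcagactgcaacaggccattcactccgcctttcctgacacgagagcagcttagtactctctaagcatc
Krt8: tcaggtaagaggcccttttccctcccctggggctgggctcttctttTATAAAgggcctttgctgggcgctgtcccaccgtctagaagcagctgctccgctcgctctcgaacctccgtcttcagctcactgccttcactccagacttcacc
Krt23: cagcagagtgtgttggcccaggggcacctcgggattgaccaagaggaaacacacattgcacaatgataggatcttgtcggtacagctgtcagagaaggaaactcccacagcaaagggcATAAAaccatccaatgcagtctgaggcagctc
Krt83: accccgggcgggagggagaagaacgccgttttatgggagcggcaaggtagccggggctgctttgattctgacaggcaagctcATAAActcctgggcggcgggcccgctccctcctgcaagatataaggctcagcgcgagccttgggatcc
Defb25: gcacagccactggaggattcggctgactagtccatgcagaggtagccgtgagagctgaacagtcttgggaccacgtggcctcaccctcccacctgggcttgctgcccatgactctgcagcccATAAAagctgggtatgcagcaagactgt

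In Krt34, Krt25 and Krt71 the capitals began 31, 30 and 36 bases before the RefSeq start, and Krt71 held a pair of overlapping matches. In Krt24 and Krt8 they began 86 and 104 bases before it. In Krt23, Krt83 and Defb25, which held ATAAA but not TATANA, they began 32, 68 and 28 bases before the start. Krt83 also held tataag between its capitals and the start, which neither string matches. The strings searched on the gene strand were TATANA, where N is any base, and ATAAA, which overlaps the longer string where its N is A. A match to TATANA occurred in 5 of the 8 promoters of members with a promoter peak (62.5%), in 21 of 33 other keratin promoters in RefSeq (63.6%), in 6 of 26 beta-defensin promoters (23.1%) and in 11.2% of all 27457 promoters. The share was close between members with a promoter peak and the other keratins. ATAAA, marked only where TATANA was absent, occurred in 16.1% of all promoters. Its share in the other keratin promoters is not given here, so members cannot be compared with them. The GC box string GGGCGG, counted on both strands, occurred in 1 of the 8 promoters, in 4 of 40 keratin promoters, in 0 of 26 beta-defensin promoters and in 27.8% of all promoters. CCAAT on the gene strand occurred in 2 of the 8 promoters (25%), 9 of 40 keratin promoters (22.5%), 2 of 26 beta-defensin promoters and 12.8% of all promoters. A match describes the letters in the window and is not evidence of a bound site.

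Divided by the tissue they serve, the keratins other than Krt42 fell into lists of 2 to 5 members present in the table, and the interval of each list included the 43.2% of all annotated genes. Hair keratins, which form the hard filaments of the hair shaft, had promoter peaks at 3 of 5 members (14.7 to 94.7%). Krt33a, a type I hair keratin, carried the strongest peak of either family, at chr10:87749074-87749129 (rn5), 34 bp into the gene, and its signal of 13.5 exceeded 99.8% of annotated peaks. Signal is the authors' value per peak, whose scaling is not given in the sources used here, and it ranks peaks only within this list. Krt33a held a further peak of signal 6.56 and another of 2.45, 2096 and 2517 bp into the gene. Krt34, its neighbour, had a peak of signal 6.13 at chr10:87740298-87740353, 19 bp from its TSS, and 3 distal peaks of 2.78 to 3.40 between 43.6 and 57.6 kb beyond its TSS. The Krt33a transcript in the authors' annotation was 16239 bp long and covered Krt34, so the assignment of peaks between these genes is uncertain. Krt83, whose gene ID carries the symbol Krt87 in RefSeq, had its promoter peak 738 bp upstream with a signal of 3.18. Krt86 and Krt84, type II hair keratins, had a single peak each, 3826 and 4303 bp from the TSS, with signals of 5.20 and 3.00.

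Inner root sheath keratins, which support the growing hair, had promoter peaks at 2 of 4 members (6.76 to 93.2%). Krt71, a type II keratin in which variants cause curly coats in mammals, had a peak of signal 5.90 at chr7:141151868-141151923, 258 bp into the gene. Its strongest peak, 8.22, lay 33.7 kb away in an exon that the authors' annotation gives to Krt5. Krt25, its type I counterpart, had a peak of 4.51 at chr10:87028139-87028194, 50 bp into the gene, and weaker peaks of 2.78 and 2.43 inside it. Krt27 had no promoter peak. Its 4 peaks, of signal 2.11 to 4.90, lay together between 9.14 and 11.0 kb upstream. Krt72 had a single peak of signal 2.44 at 11.6 kb.

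Keratins of simple, single-layered epithelia had promoter peaks at 2 of 5 members (5.27 to 85.3%). Krt8, the type II keratin of most simple epithelia, had a peak over its TSS (chr7:141400423-141400478) with a signal of 3.68, above 69.1% of annotated peaks. Its other peaks lay 15.3 to 38.1 kb away. Krt18, the usual partner of Krt8, had no assigned peak. Krt23 had a peak of signal 4.94 at chr10:87203346-87203401, 406 bp into the gene. Krt19, Krt20 and Krt80 had nearest peaks at 4440, 2098 and 3778 bp. The Krt20 peak, with a signal of 2.09, stood above 3.08% of annotated peaks and was among the weakest of the family.

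Keratins of basal and stratified epithelium had promoter peaks at 0 of 4 members (0 to 60.2%). Krt14, the basal type I keratin, had a peak of 2.45 located 2810 bp into the gene and a stronger one of 6.27 at 9278 bp upstream. Krt5, its type II partner, had 1 peak of 4.03, 9121 bp from its TSS. The annotated Krt5 transcript, 152878 bp long, ran over Krt71 and Krt72, so this distance is uncertain. Krt16, which is induced in wounded and hyperproliferative epidermis, had 1 peak of 7.31, the third-highest keratin signal, 2092 bp into a gene of 2720 bp and 572 bp short of its end. Krt75, a hair follicle keratin that was counted in this list, had 4 peaks between 38.6 and 60.8 kb upstream, with signals of 2.05 to 5.51. Of suprabasal and mucosal keratins, Krt24 had a single peak of 4.73 at chr10:86990979-86991034, 19 bp into the gene, and Krt4, a mucosal type II keratin, had 4 distal peaks of 2.80 to 4.57. Krt1 and Krt10, the main pair of differentiating epidermis, had no assigned peak. Krt42 had a peak of 4.76 located 2783 bp into the gene and another of 2.33 at 22.7 kb upstream.

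**Figure D1:**
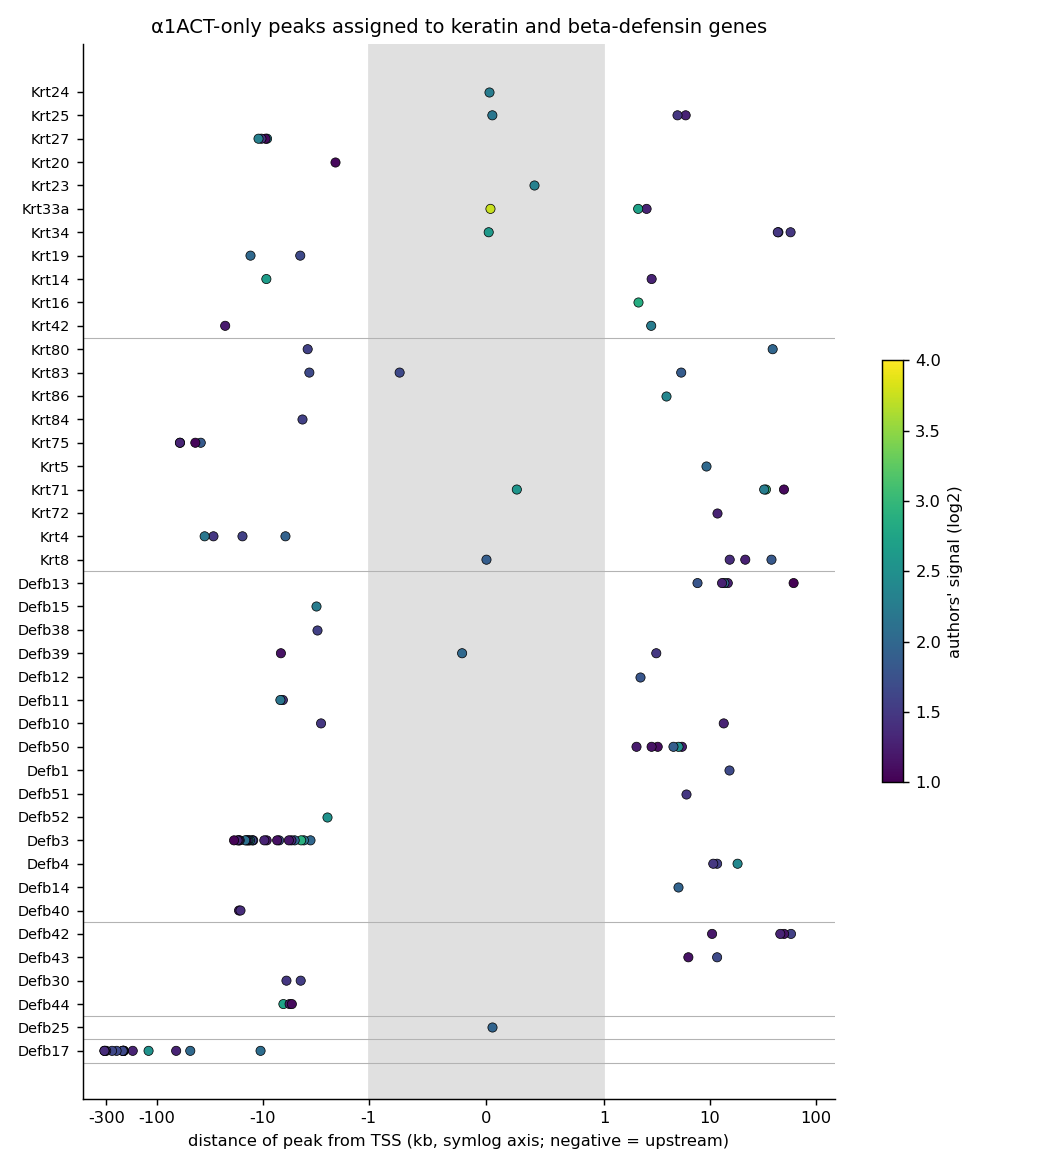
Each point is 1 peak of the α1ACT 1804 library, placed by its signed distance from the TSS of its assigned gene (x, kb, symlog axis, linear within 1 kb) in rows of genes ordered by cluster and, within it, by position; colour gives the authors' signal on a log2 scale and the grey band marks the promoter. The 10 promoter peaks sit mostly close to 0, and the bright point is Krt33a with a signal of 13.5.

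The type I and type II clusters were counted separately, with few genes in each and overlapping intervals. In the type I cluster on chromosome 10, 5 of 11 genes (45.5%, 16.7 to 76.6) and 5 of 24 peaks (20.8%) met the promoter rule. In the type II cluster on chromosome 7, 3 of 10 genes (30.0%, 6.67 to 65.2) and 3 of 25 peaks (12%) met it. With a limit of 3000 bp, the type I count was 9 of 11 genes, the type II count stayed at 3 of 10, and the background was 52.3%. These counts go by the table's symbols. The chromosome 7 keratins listed under the older symbols Kb23 (at 283 bp) and Kb15 (at -2294 bp, upstream) were then added. With them the type II count was 4 of 12 within 1000 bp and 5 of 12 within 3000 bp (41.7%, 15.2 to 72.3). The type I counts were not adjusted in this way. A gene listed as Ka11 in the type I span, with 3 peaks and 0 promoter peaks, was left out. The type I genes added by the limit of 3000 bp were Krt14, Krt16, Krt42 and Krt20. The first 3 of these had their peak 2.09 to 2.81 kb downstream of the TSS, inside the gene.

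Among beta-defensins the promoter rule was met by 1 of 15 genes on chromosome 16, 0 of 4 on chromosome 15, 0 of 1 on chromosome 9 and 1 of 1 on chromosome 3. Defb39 had its promoter peak at chr16:74724701-74724756, 207 bp upstream, with a signal of 4.03, and weaker peaks of 2.80 and 2.22 at 3108 and 6762 bp. Defb25 had a single peak of 3.86 at chr3:154509537-154509592, 49 bp into a gene of 841 bp. Genes near Defb25 on chromosome 3 also carried promoter peaks, among them Sox12 with 3 and Trib3 and Csnk2a1 with 2 each. No beta-defensin peak lay between 207 and 2022 bp from a TSS. With the limit at 3000 bp, 6 of 21 beta-defensins (28.6%, 11.3 to 52.2) met the rule, against 52.3% of all annotated genes. The additional genes were Defb12, Defb10, Defb50 and Defb52. Their peaks nearest the TSS had signals of 3.50, 2.77, 2.34 and 5.71 in that order. Defb12 carries the symbol Defb105b in RefSeq.

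Other genes of like length or peak number had shares near the overall background. Of 2033 other genes between 2416 and 6825 bp long, the interquartile range of the beta-defensins, 46.5% had a promoter peak. Of 1312 other genes between 5284 and 8808 bp, the interquartile range of the keratins, 45.7% had one. Of 6747 other genes with 1 to 3 assigned peaks, the interquartile range of the beta-defensins, 43.0% had one. At the level of peaks, 8 of 49 keratin peaks (16.3%, 7.32 to 29.7) and 2 of 81 beta-defensin peaks (2.47%, 0.300 to 8.64) were promoter peaks, against 5.75% of the peaks of all other genes. Without Defb3 and Defb17, which held many distal peaks, 2 of 42 beta-defensin peaks (4.76%) were promoter peaks. The member peaks nearest the limit of 1000 bp were at Krt83 (738 bp, signal 3.18) on the inside and Defb50 (2022 bp, signal 2.34) on the outside.

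**Figure D2:**
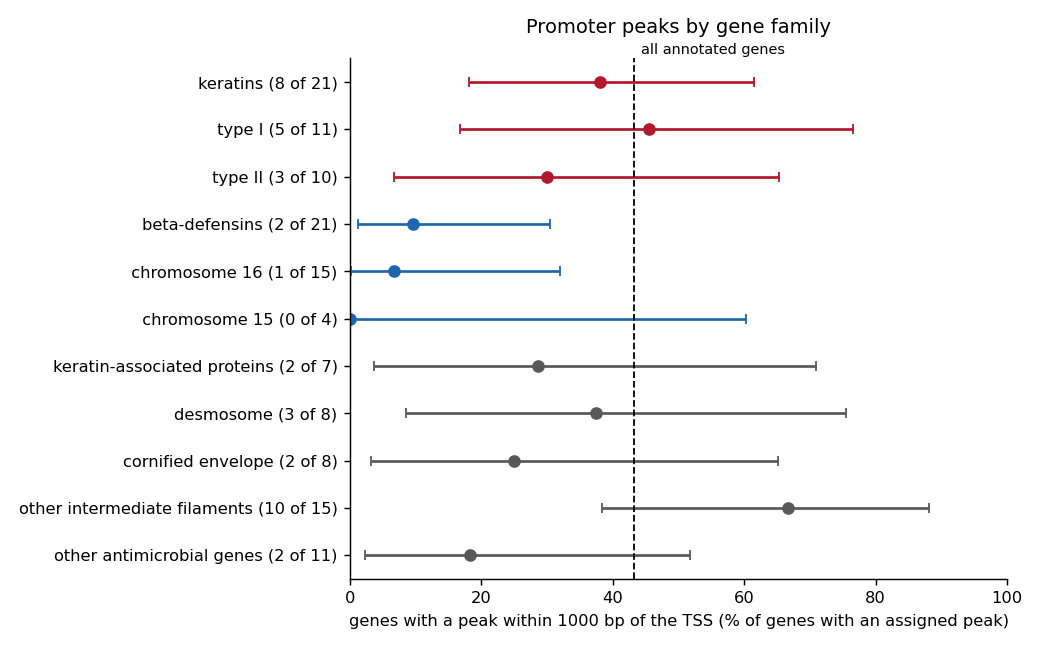
Points give the share of genes (x, percent of genes with an assigned peak) that had a promoter peak, with exact 95% binomial intervals, for keratins and beta-defensins, their clusters with more than 1 gene, and related gene lists; the dashed line is the 43.2% of all annotated genes. The beta-defensin point, 2 of 21 genes, has its whole interval left of the line, and the keratin interval spans it.

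Because the table lists only genes with an assigned peak, the families were also counted in RefSeq. Of 52 keratin genes with a curated protein-coding transcript, 23 (44.2%, 30.5 to 58.7) had any assigned peak, and of 39 beta-defensins 20 did (51.3%, 34.8 to 67.6), against 74.7% of all 18539 such genes. A promoter peak was present at 9 of the 52 keratins (17.3%, 8.23 to 30.3) and 2 of the 39 beta-defensins (5.13%, 0.627 to 17.3), against 32.9% of all. With this denominator the intervals of both families lay below the background. The ninth keratin is listed in the authors' table as Kb23 and is Krt83 in RefSeq; its peak of signal 2.77 lay 283 bp into the gene. Beta-defensins were unevenly covered, with an assigned peak at 14 of 20 genes on chromosome 16 and 4 of 5 on chromosome 15, but at 1 of 11 on chromosome 3. In crowded clusters each peak goes to 1 nearest gene, so a gene without an assigned peak may still lie near one.

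Median signal was higher for promoter than for distal peaks in keratins, as it was in all other genes. The median signal was 4.83 for the 8 keratin promoter peaks (range 3.18 to 13.5) and 3.18 for the 41 keratin distal peaks (2.05 to 8.22). In all other genes the medians were 4.36 for promoter and 2.99 for distal peaks. The order-statistic interval of the keratin promoter median, 3.18 to 13.5, overlapped that of the distal median, 2.78 to 3.93. All 10 promoter peaks of the 2 families lay above the median of the table, 3.02, as did 75.9% of the other genes' promoter peaks. In the type I cluster the medians were 4.94 for promoter and 2.78 for distal peaks, and in the type II cluster 3.68 for promoter and 3.36 for distal peaks. The lowest type I promoter signal, 4.51 at Krt25, exceeded the type II promoter signals of Krt8 and Krt83 but not the 5.90 of Krt71.

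Beta-defensin distal peaks had signals close to those of other distal peaks. Their median was 2.93 over 79 peaks (2.01 to 7.50), with an interval of 2.61 to 3.18. By region the distal median was 2.79 on chromosome 16, 2.43 on chromosome 15 and 3.14 on chromosome 9. On chromosome 15, 2 of 11 peaks lay at or above the median of the table, the stronger being a peak of 6.62 located 6405 bp upstream of Defb44. The upper 10% of the table, which began at 5.28, held 3 of the 8 keratin promoter peaks (37.5%), 0 of the 2 beta-defensin promoter peaks, whose median was 3.95, and 37.1% of the promoter peaks of other genes. Signal values repeat across the table, with 91.5% of member peaks and 86.8% of all peaks sharing their value to 6 decimals with another peak.

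**Figure D3:**
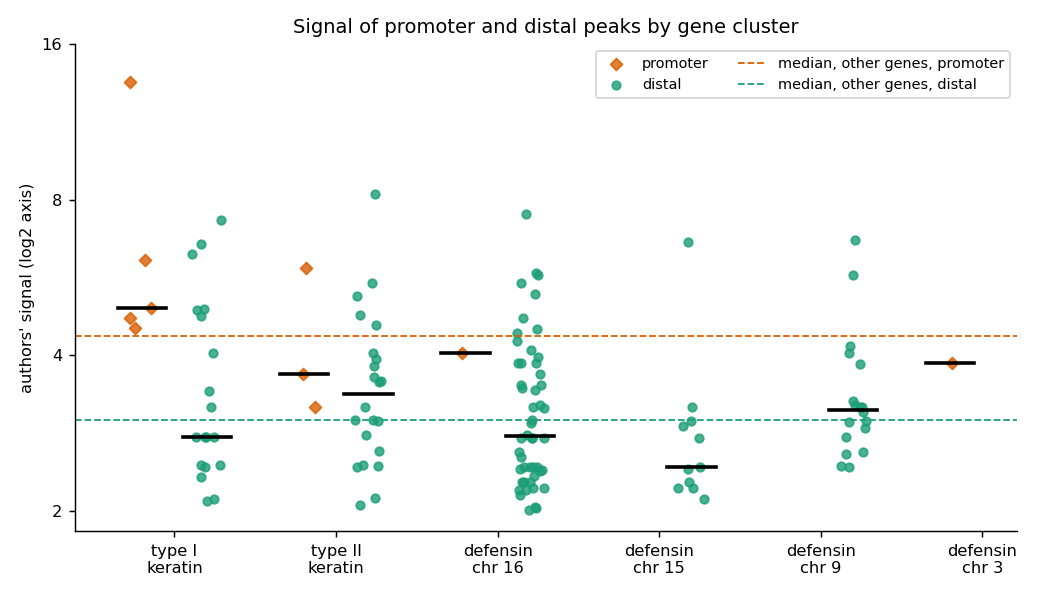
Signal (y, authors' units, log2 axis) of each promoter peak (orange diamonds) and distal peak (green circles) by gene cluster, with black bars at the medians and dashed lines at the medians of all other genes. The type I keratin promoter peaks sit at 4.51 and above, and most chromosome 15 beta-defensin peaks sit below the distal median.

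A larger share of keratin peaks than of other genes' peaks lay in exons. The authors' annotation put 6 of 49 keratin peaks in exons (12.2%, 4.63 to 24.8), 1 of 81 beta-defensin peaks (1.23%) and 0.911% of the peaks of other genes. Of peaks annotated to an exon or an intron, 6 of 8 keratin peaks were exonic (75%, 34.9 to 96.8), against 5.32% in other genes. They lay in exons 4 and 6 of the 8 exons of Krt25, in exon 7 of the 9 exons of Krt83 and of Krt86, and in exons 8 and 10 of the 10 exons given to Krt5. The last pair were assigned to Krt71 and had signals of 4.79 and 8.22. The exonic share of each gene's length was not measured here. Keratin genes of 1 type resemble one another, and how the authors placed reads that match several copies is not given in the sources used here, so these counts are uncertain. The annotated Krt5 transcript spanned 152878 bp and ran over Krt71 and Krt72, so the host gene of the Krt5 exon peaks is uncertain. The single exonic beta-defensin peak and 2 intronic ones, all assigned to Defb42, lay in Wdfy2, a neighbouring gene.

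**Figure D4:**
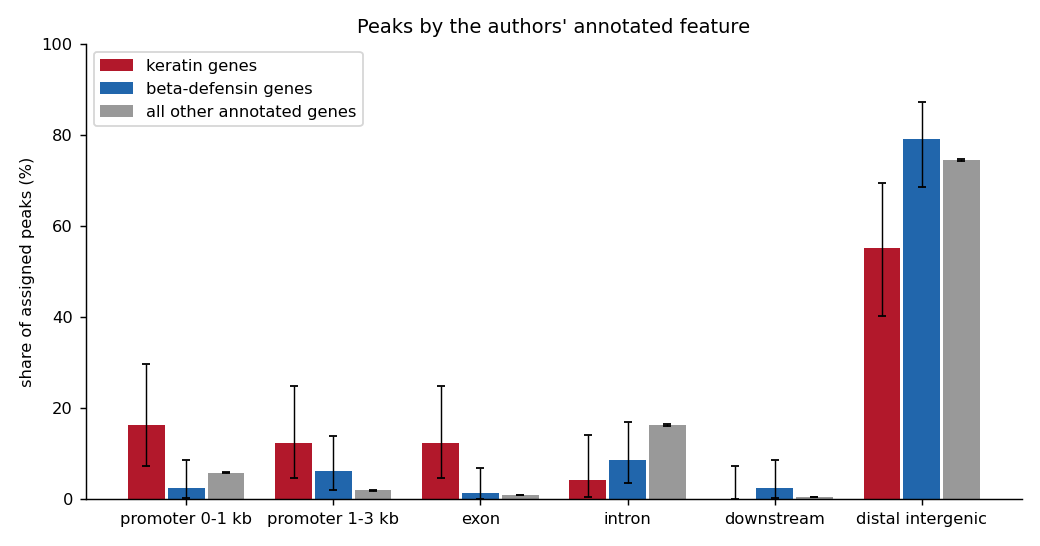
Share of assigned peaks (y, percent) in each feature of the authors' annotation for keratin genes, beta-defensin genes and all other annotated genes, with exact 95% binomial intervals as bars. Keratin peaks stand higher in exons (12.2%) and lower in introns (4.08%) than those of other genes (0.911% and 16.2%).

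Distal peaks of both families lay closer to their genes than is usual in the table. The median distance of distal peaks was 11.0 kb for keratins and 12.4 kb for beta-defensins, against 136 kb for other genes. Members also had fewer peaks, with a median of 2 per gene in each family against 4, and were shorter, with median lengths of 7162 bp in keratins and 3233 bp in beta-defensins against 17042 bp. Nearest-TSS assignment in a tandem cluster shortens distances by construction, because another TSS is always near; how much of the difference this gives was not tested.

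Beta-defensin peaks were concentrated at 2 genes, Defb3 and Defb17, which together held 39 of 81 (48.1%). Defb3, whose mouse namesake is induced in infected epithelia, had 21 peaks, all upstream, from 3554 to 18737 bp. They spanned 15.2 kb with a median gap of 375 bp, against 2975 bp between neighbouring peaks in the whole table, and 15 of 20 gaps were under 1 kb. The strongest had signals of 7.50 at 4354 bp and 5.77 at 13.2 kb upstream, and the weakest 2.02. A 20 kb window here held up to 22 peaks, one of them assigned to Defb4; 0.418% of the windows opened at each annotated peak held as many, and the median window held 3. Defb4, next to this stretch, had 3 peaks, the strongest of 5.26 at 18.2 kb. The Defb3 gene ID had no match in the RefSeq table, and mappability of this stretch was not measured here.

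Defb17 on chromosome 9 had 18 peaks, all upstream but scattered over 303 kb, from 10.5 to 314 kb. Of these, 7 lay between 200 and 220 kb upstream, including the strongest, 6.69 at 206 kb; 17.9% of the 20 kb windows in the table held at least 7 peaks. The next strongest, 5.73, lay at 120 kb. Assignment at such distances is to the nearest TSS and does not say which gene a peak belongs to. Defb50 had 6 peaks, all inside its gene between 2022 and 5431 bp from the TSS, with signals of 2.15 to 5.51. Defb13 had 5 peaks of 2.01 to 3.86 at 7.62 to 61.6 kb, and Defb42 4 peaks of 2.22 to 2.98 at 10.5 to 58.2 kb. Defb52 and Defb15 had a single strong peak each, 5.71 at 2473 bp and 4.73 at 3135 bp upstream. Defb11 had peaks of 2.77 and 4.50 at 6482 and 6839 bp upstream. Defb38 had 1 peak of 3.00 at 3104 bp. Defb1, the constitutive epithelial beta-defensin, had 1 peak of 3.18 at 15.2 kb. The remaining members Defb14, Defb30, Defb40, Defb43 and Defb51 had 1 or 2 distal peaks each, of signal 2.22 to 3.86.

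**Figure D5:**
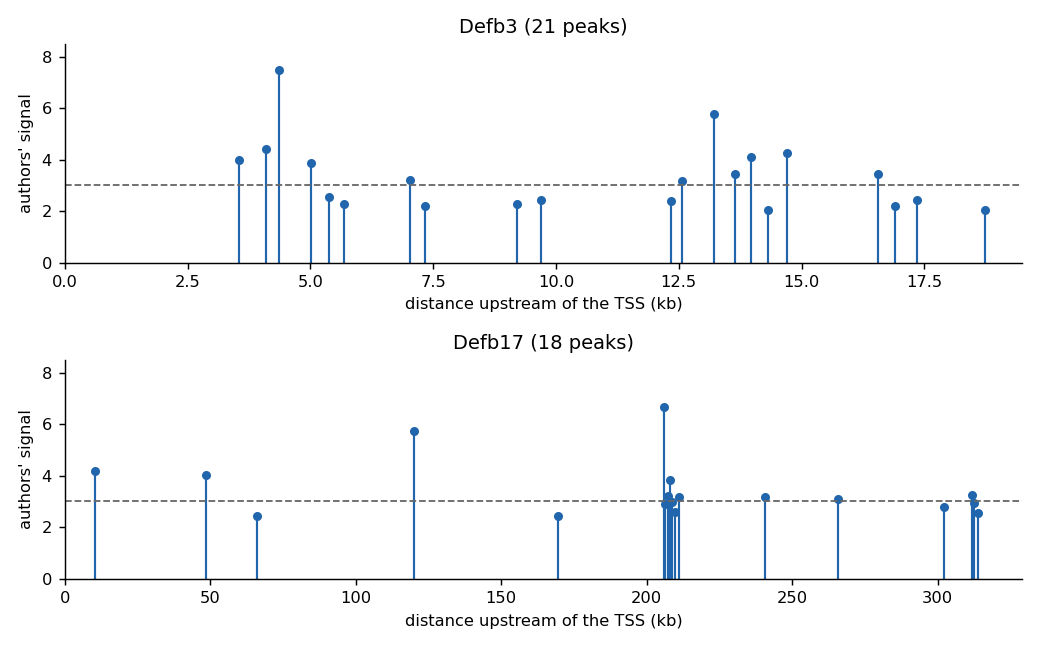
Signal (y, authors' units) of each peak assigned to Defb3 and to Defb17 against its distance upstream of the TSS (x, kb; the panels have different scales), with the dashed line at the median signal of the table. The 21 Defb3 peaks fill 15.2 kb, and the Defb17 peaks spread over 303 kb with 7 of them near 208 kb.

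Peak density differed between the clusters. The beta-defensin span on chromosome 16 (chr16:74651452-75305861) held 67 peaks, 102 per Mb against 53.5 per Mb on that chromosome, and 70.3 per Mb without the Defb3 peaks. Of the 67 peaks, 46 were assigned to members and others to alpha-defensin genes such as Defa7 (3 peaks, 1 of them a promoter peak) and to Spag11bl (8 peaks), an epididymal gene with defensin-like products. The chromosome 15 span (chr15:49925455-50003416) held 7 peaks, 89.8 per Mb against 58.7, which became 50.4 per Mb with 100 kb on each side. The type I keratin span (chr10:86986162-87966157) held 53 peaks, 54.1 per Mb against 56.5 on chromosome 10. Of these 23 were assigned to members and 17 to Krtap1-5, a keratin-associated protein of the hair matrix. The type II keratin span (chr7:140796567-141400457) held 26 peaks, 43.1 per Mb against 65.4 on chromosome 7. The density over all chromosomes was 54.9 per Mb.

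None of the 130 peaks overlapped a peak of the other 3 lists, which for the empty vector lists may follow from how the α1ACT-only table was made, and none of the 6 clusters or lone genes had a peak of those lists within its span or 100 kb of it. The other lists were much shorter, with 81 peaks for α1ACT M2, 244 for empty vector M2 and 272 for empty vector 1804, against 161730 for α1ACT 1804. The nearest peaks to any member peak lay 9.80 Mb away for α1ACT M2, 0.206 Mb for empty vector 1804 and 1.31 Mb for empty vector M2. The α1ACT M2 list therefore holds no called peak at these sites. The absence of M2 and vector peaks at them cannot be told apart from the difference in list length. For 0 of 130 peaks, 3 counts allow a share of up to 2.31%, which covers counting error only and takes neighbouring peaks as independent. Because the other lists are short and the table may leave out vector peaks, this limit is not a measure of shared sites.

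Gene groups related to the families were counted in the same way. Of intermediate filaments other than keratins, 10 of 15 genes had a promoter peak (66.7%, 38.4 to 88.2), including Ina (11.3), Lmnb1 (6.91), Lmna (6.90), Nefm (6.57) and Nefh (5.69), where the values are the highest promoter signals. Ina, Nefm and Nefh encode neuronal filament proteins and Lmna and Lmnb1 nuclear lamins. Their interval overlapped that of the keratins. Of 69 known keratin-associated protein symbols, 7 had an assigned peak. Promoter peaks were present at 2 of these 7 genes, Krtap13-2 (4.08) and Krtap19-5 (3.18). Desmosome genes, which anchor keratin filaments at cell junctions, had them at 3 of 8, namely Pkp3 (6.78), Jup (2.38) and Perp (2.33). Cornified envelope genes had them at 2 of 8, Cstb (2.87) and Ppl (2.05). Other antimicrobial genes had them at 2 of 11, Rnase4 (5.23) and Camp (2.99). The shares of the last 4 lists were below the 43.2% of all annotated genes, and each of their intervals included it. All these shares leave out listed genes without an assigned peak.

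Defining genes of chromaffin cells had promoter peaks at 4 of 6 genes in the table, Phox2a (9.74), Chga (9.26), Th (8.79) and Chgb (6.56). Keratinocyte markers had them at 0 of 4 genes and simple epithelium markers at 2 of 4, Krt8 and Epcam. The intervals of these 3 lists, 22.3 to 95.7%, 0 to 60.2% and 6.76 to 93.2% in that order, overlapped and included the 43.2% of all annotated genes. A peak does not measure expression, and RNA of these genes was not analysed here.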

How the data were processed

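For the 4 precipitated libraries the authors deposited a peak list each, in narrowPeak columns, beside 1 annotated table. The names of the lists point to spp, of which no source used here gives the version or settings. Per the submitters' processing notes, the build was rn5 and the tools were BWA 0.7.5a, FastQC 0.11.2, HOMER, ChIPseeker and DiffBind, with roles not stated. Peaks were called per library and all were 56 bp wide. The deposited signal column is the authors' value per peak, in an unstated scale; the deposited −log10 q-value column was at least 1.33 in the α1ACT 1804 list.

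Annotated peaks were joined to the signal by chromosome and start. Distances to the TSS and features are the authors'. Genes less than 1 Mb apart formed a cluster. Shares have exact Clopper-Pearson 95% intervals, and medians have order-statistic intervals, or the range where peaks were too few for one. RefSeq genes were matched by gene ID (41 of 42 members), and promoters for 24. Members and gene lists were chosen with earlier results of these data known. Genes named were those with a promoter peak, those with the most, strongest or nearest peaks in each family, role-list members within 10 kb, and at most 5 genes with promoter peaks per comparison list; a few others were named after their values were seen, and the length-matched genes were chosen then too. Scripts were tested on simulated data, with Python 3.11.15, pandas 2.3.3 and scipy 1.17.1.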

Additional observations from a re-analysis of the deposited data

How the results depend on the processing

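Of 50 alternatives, 42 left the value within the 95% interval of the one reported or, for counts of clusters and densities, within 1.5 times it. For the median of the 2 beta-defensin promoter peaks the interval was their range, which has less than 95% confidence. With peaks restricted to the upper 10% of signal, the share of genes with a promoter peak was 14.3% in keratins and 0% in beta-defensins. The share over all genes at this signal limit was not counted, and the background share above rests on peaks of any signal. The promoter share of peaks at this limit was 37.5% in keratins (3 of 8) and 0% in beta-defensins (0 of 7). For all other genes, 3400 of 15931 such peaks were promoter peaks. With all RefSeq keratins as the denominator the keratin gene share was 17.3%. With a limit of 3000 bp, promoters held 8.64% of beta-defensin peaks, against 7.65% of the peaks of all other genes. At this limit the beta-defensin share of peaks was therefore not below the background. The share of genes at this limit was 28.6% (6 of 21, 11.3 to 52.2), against 52.3% of all annotated genes. The median signal of these beta-defensin promoter peaks was 3.50. With 100 kb on each side, density at the chromosome 15 beta-defensins was 50.4 per Mb. No member peak lay within 500 bp of a peak of another list. Without Krt33a the keratin promoter median was 4.73, and without Defb3 and Defb17 the beta-defensin distal median was 2.77; both, like the older symbols, were chosen after seeing the data. The main limits are 1 library per group, unknown read depth and signal scaling, no second list with a called peak at these sites, and small counts of promoter peaks.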
